A study of Caenorhabditis elegans with 15 samples.

Results

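The 10 libraries whose worms carry the gas-1(fc21) allele were taken as one group and set against the 5 wild type libraries, 15 libraries in all. The 10 were chosen by their labelled genotype alone: 5 come from the gas-1(fc21) strain, called gas-1, and 5 from a gas-1(fc21) strain that also overexpresses cest-2.2, called OE. The question asked of each gene was whether its RNA level differed from wild type in the same direction in both mutant strains.

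Each sample pooled 20 intestines dissected from Caenorhabditis elegans at 5 days of age. All worms, wild type included, were grown on plates seeded with OP50 bacteria, and libraries covering full transcripts were made by Smart-seq2 without strand information. The replicates are pools of dissected intestines, and the labels do not say whether they come from separate cultures, so p-values measure the spread between these samples only. Both mutant groups share gas-1(fc21), and no library here carries the cest-2.2 transgene in a wild type background. Each genotype is represented by 1 strain, so the allele and any other difference between these strains and wild type cannot be told apart. How cest-2.2 was overexpressed is not given in the sources used here.

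As background, gas-1 encodes a core subunit of respiratory complex I, the enzyme that passes electrons from NADH to ubiquinone in the inner mitochondrial membrane, and fc21 is a missense allele that lowers complex I function. The worm intestine digests food, stores fat, makes yolk protein for oocytes, breaks down foreign chemicals and secretes antimicrobial proteins. The cest genes encode carboxylesterases, enzymes that cleave ester bonds.

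Libraries held between 12182697 and 40045140 estimated counts in wild type, 12607565 and 17688689 in gas-1, and 12785262 and 45896053 in OE. Yolk protein genes took between 19.2% and 34.8% of the counts in wild type libraries, between 25.6% and 33.6% for gas-1, and between 26% and 44.4% for OE. The intestine markers, among them the transcription factor elt-2 and the brush border actin act-5, were present in every library, with a summed level of 2712 to 6094 CPM in wild type and 4199 to 9086 CPM in the 10 mutant libraries (CPM, TMM-scaled counts per 1000000). Markers of other tissues were present too, and some moved with genotype. The 26 germline markers summed to 4214 to 5001 CPM in wild type libraries, with gas-1 at 2537 to 4136 and OE at 3521 to 5636. The 22 oocyte and embryo markers summed to 11707 to 13017 CPM in wild type libraries, with gas-1 at 5337 to 9188 and OE at 7643 to 14128. In both cases the highest of the 10 mutant libraries was OE replicate 2, and the other 9 lay below all 5 wild type libraries. The 15 body wall muscle markers stood at 2341, 1337, 310, 3754 and 649 CPM in wild type replicates 1 to 5, against 207 to 687 CPM in the mutant libraries, so replicates 1, 2 and 4 of wild type stand apart. Cuticle collagens followed the same 3 libraries, at 16307, 6810, 306, 17691 and 2857 CPM in wild type and 346 to 4840 CPM in the mutants. Sperm markers were nearly absent, with 16 of 38 at 0 in all 15 libraries and a highest sum of 7.37 CPM.

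**Figure D1:**
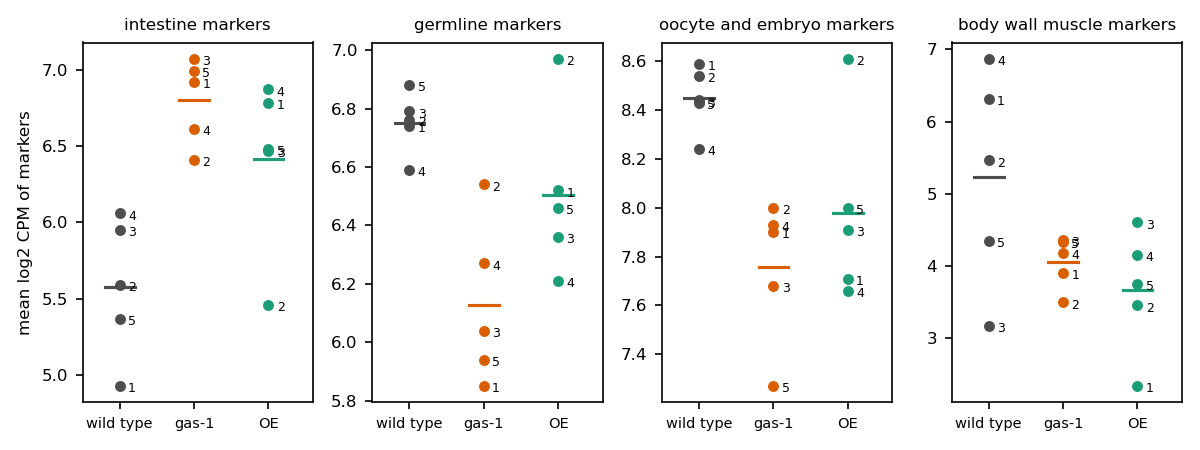
Mean log2 CPM of tissue marker lists in each library (points, with the replicate number), with the mean of each group as a bar: intestine, germline, oocyte and embryo, and body wall muscle markers in wild type, gas-1 and OE. Wild type replicates 1, 2 and 4 are the 3 highest for muscle (6.31, 5.46 and 6.87), and OE replicate 2 is the lowest mutant library for intestine markers (5.46) and the highest for germline markers (6.97).

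The gene that carries the mutation was higher in the mutants. gas-1 (WBGene00001520, chromosome X, bases 15586786 to 15590397, minus strand, build WBcel235) was at 66, 65.5, 72.1, 87.7 and 47.8 CPM in wild type replicates 1 to 5 and at 89.9 to 150 (median 125) CPM in the 10 mutant libraries, with no overlap. The means were 67.8 ± 14.4 (SD, n = 5) and 122 ± 23.3 (SD, n = 10), a log2 fold change of 0.85 ± 0.17 (SE; edgeR adjusted p = 0.00376), and the rise was called in each strain, with log2 fold changes of 0.87 in gas-1 and 0.83 in OE. Since fc21 is a missense allele, the RNA level does not check the genotype labels. gas-1 was no longer called with the germline marker level as a covariate (adjusted p = 0.213) or without wild type replicates 1, 2 and 4 (adjusted p = 0.0565), both by edgeR, and it shares 26 exonic bases with K09A9.6 on the opposite strand. cest-2.2 (WBGene00013874, chromosome V, bases 14171639 to 14175355, minus strand) was at 21.6, 43, 64.3, 53.3 and 28.9 CPM in wild type, 34.9 to 97.5 CPM in gas-1 and 60.9 to 179 CPM in OE. The pooled log2 fold change was 0.97 ± 0.30 (SE, edgeR adjusted p = 0.0322). The strain estimates were unequal, at 0.41 in gas-1 and 1.52 in OE, and no common change was called (edgeR adjusted p = 0.631). The difference of OE from gas-1, 1.11 ± 0.33 (SE), was not called either (edgeR adjusted p = 0.109), and the libraries of the strains overlapped. Leaving out wild type replicate 1, 2 or 5, or OE replicate 1 or 4, ended the pooled call for cest-2.2. So did the germline or the muscle marker level as a covariate (edgeR adjusted p = 0.733 and 0.0889).

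Across genes, the 2 mutant strains lay on the same side of wild type. On the first principal component of log2 CPM, which held 27.2% of the variance, the wild type libraries ran from -96.6 to -22 and the 10 mutant libraries from -4.5 to 78.6. edgeR's quasi-likelihood test with Benjamini-Hochberg adjustment called 2165 of 10585 tested genes in the pooled contrast at an adjusted p under 0.05, which is 20.5%. Of these, 1337 genes (12.6% of those tested) were higher in the mutants and 828 (7.82%) were lower, and 860 of the rises and 350 of the falls were at least 2-fold. DESeq2 called 16.2% higher and 10.1% lower. The pooled contrast averages the strains, so the stricter common change asks for the same direction in gas-1 against wild type and in OE against wild type, and tests the weaker of these. It was called for 402 rises (3.8% of tested genes) and 49 falls (0.463%). Gene list counts below are those of the pooled contrast unless a call in both strains is named. Both strain contrasts share the 5 wild type libraries, so an odd wild type library moves both in the same way. For 270 genes (2.55%) the lowest mutant library exceeded the highest wild type library, and for 73 (0.69%) the reverse held.

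**Figure D2:**
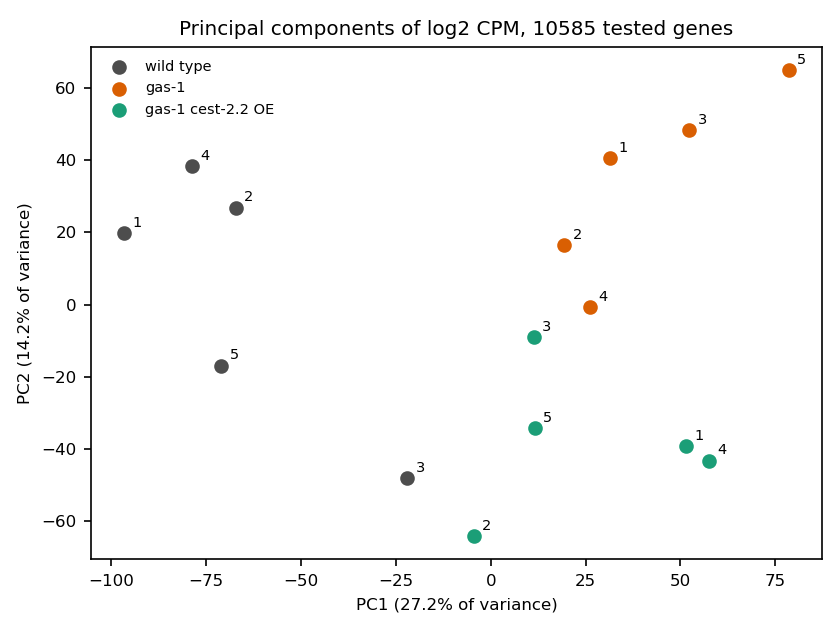
First and second principal components of log2 CPM over the 10585 tested genes, holding 27.2% and 14.2% of the variance, with each point a library and its replicate number. Wild type libraries lie at -96.6 to -22 on the first component and the 10 mutant libraries at -4.5 to 78.6.

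These counts depended on which libraries and which scaling were used. Without wild type replicates 1, 2 and 4, which carried the muscle and collagen RNA, 2 wild type libraries were left. The pooled contrast then called 264 rises and 26 falls among 11729 tested genes. With the germline marker level as a covariate it called 150 rises and 127 falls among 10585 tested genes. That level, a mean log2 CPM, itself nearly separated mutants from wild type. Mutant libraries ranged from 5.85 to 6.97, and OE replicate 2 alone exceeded the wild type minimum of 6.59. A call can therefore be lost because the covariate overlaps with genotype, or because germline RNA contributes to the change. Which of these applies was not tested for any loss of calls reported with this covariate. On TPM, which scales every library to 1 common total, the balance turned: 1074 rises and 2548 falls, so rises made up 29.7% of the calls against 61.8% on counts, and the median log2 fold change of all genes moved from -0.10 to -0.36. Fewer cells of a tissue and less RNA per cell cannot be told apart in such samples, and the part of the other tissues in the gene calls below was not tested beyond these fits.

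The largest rises common to both strains were led by genes near absence in wild type. They were taken from 162 genes with a common rise, a log2 CPM averaging 3 or more and no overlap of libraries. Lack of overlap was thus a condition of the choice for them. klp-4 (chromosome X, bases 3171420 to 3178701, minus strand), a kinesin-type motor protein known from neurons, stood at 0.778, 0.244, 0.141, 2.24 and 0.114 CPM in wild type and at 13.8 to 70.2 (median 29) CPM in the mutants, with 5.90 ± 0.68 as the log2 fold change (SE; edgeR adjusted p = 4.29e-05). The strains matched closely for klp-4 (5.97 in gas-1 and 5.83 in OE, with a strain difference of -0.14). B0205.13 (chromosome I, bases 10727755 to 10728808, minus strand) had the second smallest adjusted p among the rises: 7, 1, 0, 2 and 2 rounded counts in wild type replicates 1 to 5, and at least 207 counts in each mutant library. In CPM that is at most 0.363 in wild type and 9.2 to 106 (median 26) in the mutants, a log2 fold change of 8.07 ± 0.65 (SE; edgeR adjusted p = 2.5e-06) whose size depends on 12 wild type counts in all. T19C9.8 was at 0.83, 1.36, 1.41, 0.0932 and 1.71 CPM in wild type and 24.1 to 145 (median 49.3) CPM in the mutants, and F33H12.7 at 1.61, 1.67, 0.258, 0 and 0.57 and 12.2 to 166 (median 32) CPM. For F33H12.7 the rise was larger in gas-1 (28.7 to 166 CPM) than in OE (12.2 to 35.2 CPM), with a strain difference of -2.28 (edgeR adjusted p = 0.0466).

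The other large common rises are given by gene family. The cytochrome P450 genes cyp-33C8 and cyp-13A12 encode monooxygenases of the family that oxidises foreign compounds and endogenous lipids. cyp-33C8 was at 8.87, 15.4, 1.85, 9.14 and 1.37 CPM in wild type and 60.2 to 473 (median 140) CPM in the mutants (log2 fold change 4.52 ± 0.63, SE). cyp-13A12 was at 2.44, 6.55, 6.53, 11.8 and 2.62 and 42.8 to 154 (median 97) CPM (3.98 ± 0.40, SE). cdr-4 and cdr-2, members of a gene family named for induction by cadmium, rose from 2.81 to 6.21 CPM to 20.6 to 176 (median 38.8) CPM, and from 4.2 to 9.32 CPM to 19.1 to 133 (median 52.8) CPM. ugt-19, a UDP-glucuronosyltransferase that would attach a sugar to a substrate, rose by 3.37 ± 0.38 on the log2 scale (SE), and comt-3, of the catechol-O-methyltransferase family, by 3.21 ± 0.55. asp-8, an aspartyl protease gene, was at 1.92, 1.12, 1.03, 3.26 and 3.99 CPM in wild type and 15.7 to 117 (median 41.1) CPM in the mutants. chca-1 (3.31 ± 0.28) and F17C11.13 (3.21 ± 0.27) complete the 12, and C51E3.10 had the smallest adjusted p of all rises (1.2e-06, edgeR), at 5.66, 8.92, 7.61, 6.43 and 4.91 CPM in wild type and 18 to 96.6 (median 46.8) CPM in the mutants. For all 12, chosen for having each mutant library above each wild type library, the call held in every leave-one-library-out fit. On the log2(TPM + 1) scale the 12 kept their direction with smaller folds, 3.08 against 5.90 for klp-4. T19C9.8, ugt-19, comt-3, F17C11.13 and C51E3.10 share 13 to 213 exonic bases with a neighbouring gene, on either strand, so part of their counts can be the neighbour's.

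**Figure D3:**
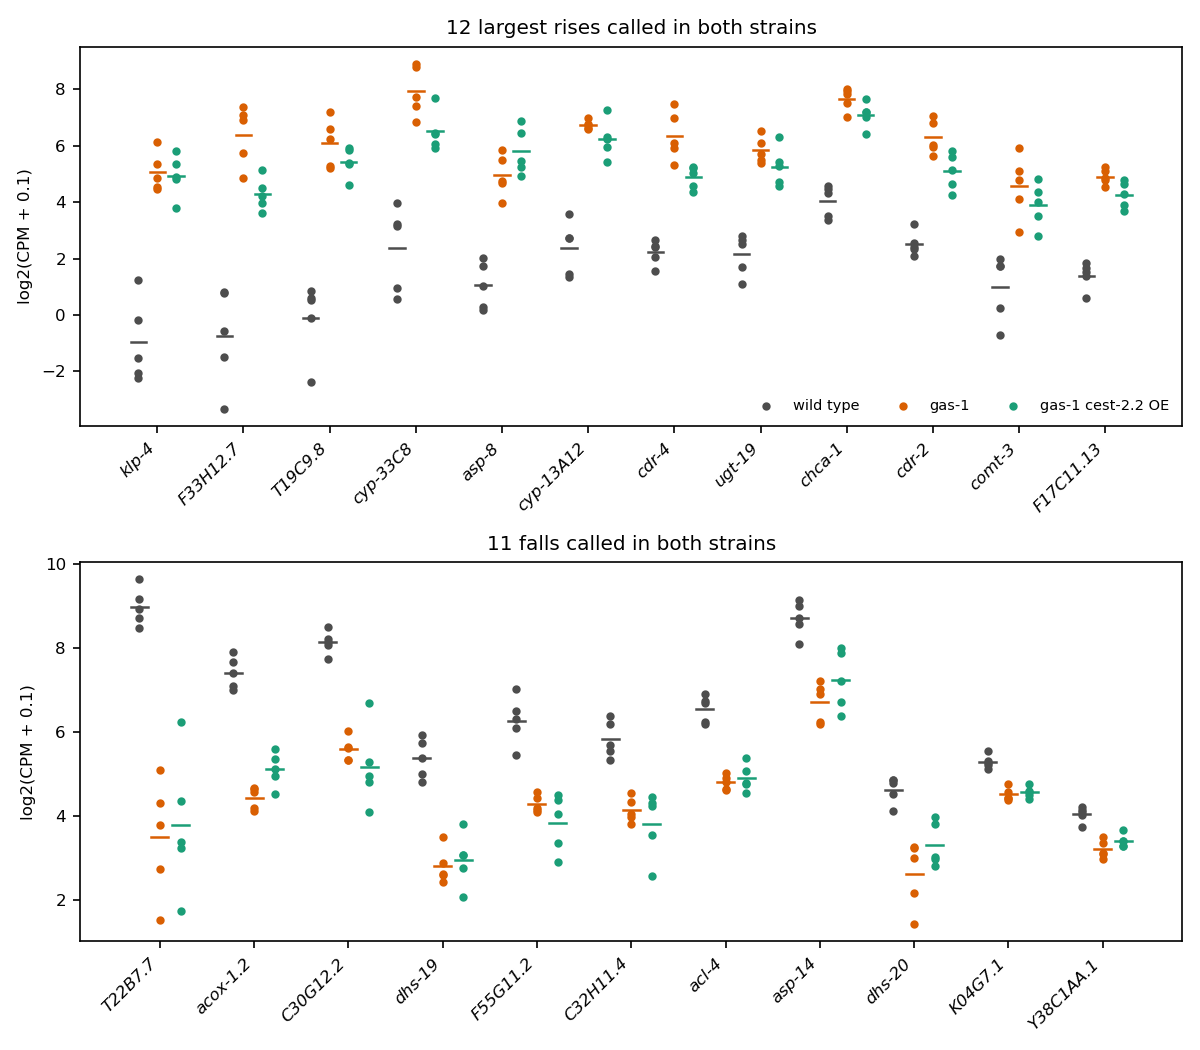
Levels, log2(CPM + 0.1), of the 12 largest of 162 rises and of all 11 falls called in both strains whose mutant libraries lie on one side of wild type. Points are libraries, bars group means, and colours wild type, gas-1 and OE. The mutant libraries of klp-4 sit at 13.8 to 70.2 CPM above a wild type maximum of 2.24, and those of T22B7.7 at 2.82 to 75.7 CPM below a wild type minimum of 358.

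Fewer genes fell in both strains: 11, against 162 rises, met the same conditions. These were a common call, a log2 CPM averaging 3 or more and no overlap of libraries. The largest fall was T22B7.7 (chromosome X, bases 5651865 to 5654074, minus strand), at 485, 576, 421, 797 and 358 CPM in wild type and 2.82 to 75.7 (median 12) CPM in the mutants (log2 fold change -4.77 ± 0.59, SE; edgeR adjusted p = 8.84e-05). acox-1.2 (chromosome I, bases 12942280 to 12946588, plus strand), an acyl-CoA oxidase of the peroxisomal pathway that shortens the side chains of ascaroside pheromones, had the smallest adjusted p of all falls together with C09B8.4 (3.24e-07 each, edgeR). acox-1.2 was at 128, 171, 203, 239 and 137 CPM in wild type and 17.3 to 48.2 (median 25.2) CPM in the mutants (-2.65 ± 0.18, SE), while C09B8.4 was at 15.9, 19.9, 21.2, 22.7 and 23.7 and 0.424 to 2.27 (median 0.96) CPM (-4.30 ± 0.28, SE). The spread within each group was small beside these differences. C09B8.4 had no overlap between mutant and wild type libraries. It was chosen by its adjusted p, and such a choice favours a small spread and lack of overlap. acl-4, which encodes an acyltransferase of glycerolipid synthesis, was at 73.6, 103, 108, 121 and 75.8 CPM in wild type and 23.4 to 42.1 (median 28) CPM in the mutants (-1.71 ± 0.15, SE), and overlaps F49H12.7 by 110 exonic bases on the opposite strand. The short-chain dehydrogenase genes dhs-19 (-2.49 ± 0.25) and dhs-20 (-1.58 ± 0.28) fell too, and dhs-26 of the same family went from 222, 209, 142, 294 and 128 CPM to 0 to 17.1 (median 1.88) CPM. asp-14, another aspartyl protease gene, moved opposite to asp-8, from 274, 423, 515, 563 and 383 CPM to 73.9 to 256 (median 125) CPM (-1.68 ± 0.25, SE). C30G12.2 (-2.63), F55G11.2 (-2.24) and C32H11.4 (-1.82) fell by more than 1 on the log2 scale, and K04G7.1 (-0.76) and Y38C1AA.1 (-0.74) by less. Without wild type replicates 1, 2 and 4 the falls of dhs-20, K04G7.1 and Y38C1AA.1 were no longer called, at -1.24, -0.72 and -0.66.

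Many genes of the respiratory chain, in both genomes, were called higher in the mutants. Few were called without wild type replicates 1, 2 and 4, or with the germline marker level, which itself differed by genotype, as a covariate. These fits called few of all tested genes higher too, 264 of 11729 and 150 of 10585. Of 35 tested nuclear genes for complex I subunits and assembly factors, gas-1 left aside, 17 rose and 0 fell, with a median log2 fold change of 0.41 against -0.10 over all tested genes, and DESeq2 called 21 rises and 0 falls. At an unadjusted p under 0.05, 23 of the 35 passed. The count ranged from 8 to 23 when 1 library was left out, with 8 to 11 when this was replicate 2, 3 or 5 of wild type, 1 or 4 of gas-1, or 1 or 3 of OE. Beside gas-1, the accessory subunit genes ndub-10 and ndub-11 were called in both strains. ndub-10 was at 83.8, 61.9, 71.9, 68.4 and 69.5 CPM in wild type and 85.4 to 121 (median 107) CPM in the mutants (0.54 ± 0.12, SE), without overlap. ndub-11 was at 44.2, 29.6, 49.8, 44.9 and 35.6 and 44.8 to 104 (median 81.2) CPM (0.93 ± 0.16, SE), with OE replicate 2 inside the wild type range. For complexes II to V and cytochrome c, 23 of 32 tested genes rose and 0 fell (median 0.60; 18 to 25 with 1 library left out). Examples are ucr-2.1, a core protein of complex III (46.6, 40.2, 39.9, 61.3 and 34.7 CPM in wild type, 61.6 to 114 (median 93.5) in the mutants), cyc-2.1, a cytochrome c (0.97 ± 0.15, SE), and cox-5B, a subunit of cytochrome oxidase (0.64 ± 0.12, SE). On TPM the medians were 0.09 for complex I, with 1 rise and 1 fall called, and 0.28 for the other complexes, with 5 rises and 3 falls. With the germline covariate, edgeR called 0 rises for complex I (median 0.25; 5 genes at an unadjusted p under 0.05) and 1 for complexes II to V (median 0.35). Without the 3 wild type libraries it called 0 rises (14 genes at an unadjusted p under 0.05) and 2. Of the genes for complexes II to V and cytochrome c, 4 were called higher in both strains. cox-5B was not among them (common adjusted p = 0.075, edgeR).

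Of the 12 protein genes of the mitochondrial genome, 10 rose and 0 fell, with a median of 1.04, and 7 of the 10 were called in both strains. ctc-2, a cytochrome oxidase subunit, was at 452, 432, 513, 482 and 460 CPM in wild type and 622 to 1393 (median 1000) CPM in the mutants (1.10 ± 0.18, SE; edgeR adjusted p = 0.000791). atp-6, an ATP synthase subunit, was at 210, 183, 214, 198 and 204 and 274 to 573 (median 384) CPM (0.93 ± 0.16, SE). For both, mutant and wild type values did not overlap, and 5 of the 12 genes showed this. The mitochondrial genome as a whole took between 0.639% and 0.975% of the counts in wild type, with gas-1 between 0.996% and 1.49% and OE between 1.25% and 2.03%. On TPM the median stayed positive (0.69) and 8 rises were called. With the germline covariate the median was 0.77 and 1 rise was called by edgeR, and without wild type replicates 1, 2 and 4 it called 0, each with 7 genes at an unadjusted p under 0.05. Mitochondrial ribosomal proteins, in contrast, gave 1 rise and 0 falls among 68 tested genes (median -0.03; DESeq2 also 1 and 0; 1 gene at an unadjusted p under 0.05). Among 14 tested genes for mitochondrial protein folding stress and import, clpp-1, a matrix protease subunit (0.78 ± 0.15, SE), timm-23, an import channel subunit (0.64 ± 0.12, SE), and dnj-10, a matrix co-chaperone (0.44 ± 0.11, SE), rose, and the other 11 were not called; of the 3, timm-23 alone was called in both strains. Their median of 0.24 turned to -0.09 on TPM, where 0 were called. In the citrate cycle 7 of 25 genes rose and 1 fell, among them citrate synthase, cts-1, at 313, 425, 317, 399 and 324 CPM in wild type and 534 to 975 (median 870) CPM in the mutants (1.19 ± 0.17, SE), and 12 rose without OE replicate 2 and 1 with the germline covariate.

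**Figure D4:**
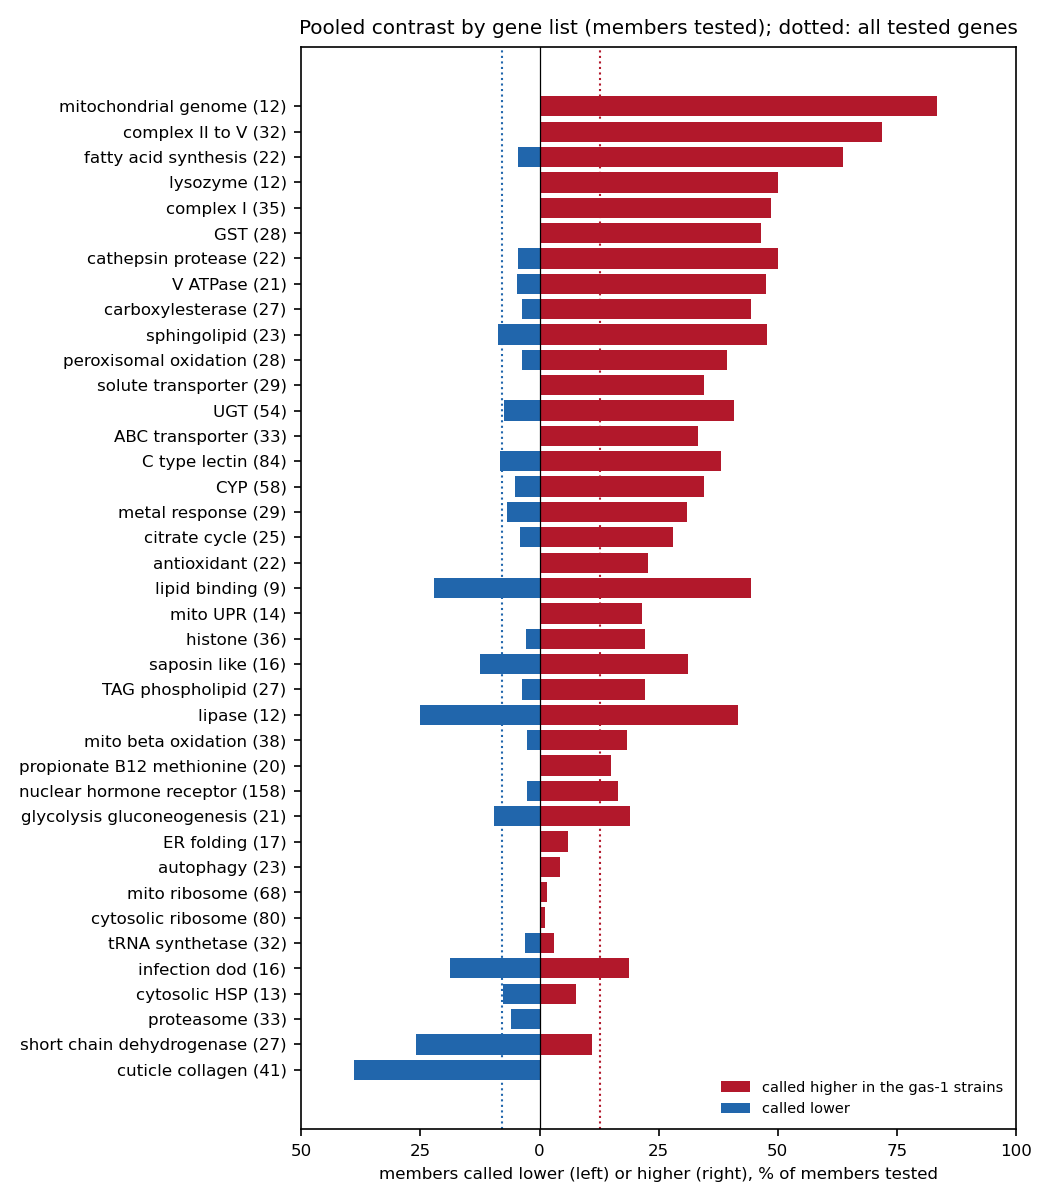
Share of the tested members of each gene list (number in brackets) called higher (right, red) or lower (left, blue) in the pooled contrast, with dotted lines at 12.6% and 7.82%, the shares over all tested genes. The mitochondrial genome list has 10 of 12 members called higher and cuticle collagens have 16 of 41 called lower.

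Detoxification families held more rises than falls. Phase I enzymes were represented by cytochrome P450 genes, with 20 of 58 higher and 3 lower (median 0.63), and carboxylesterases, with 12 of 27 higher and 1 lower (median 1.00). Phase II enzymes were UDP-glucuronosyltransferases, with 22 of 54 higher and 4 lower (median 0.57), and glutathione S-transferases, with 13 of 28 higher and 0 lower (median 0.92). Among ABC transporters, some of which export conjugates, 11 of 33 were higher and 0 lower (median 0.68). This list includes pmp-1, counted again with the peroxisomal genes below, and pgp-1, counted again with the intestine markers. DESeq2 called 13 rises and 0 falls of glutathione S-transferases and 15 and 0 of ABC transporters, and at an unadjusted p under 0.05 15 and 18 passed. All of these shares of rises were above the 12.6% of all tested genes. The medians of the lists were also positive on TPM, at 0.24, 0.60, 0.30, 0.53 and 0.26. Rises called in both strains were fewer, at 11, 3, 9, 8 and 8 in the same order, against 3.8% of all tested genes. With the germline covariate fewer rises were called, in these lists and over all tested genes (150 of 10585). They were 7 of 58 cytochrome P450 genes, 2 of 27 carboxylesterases and 5 of 54 UDP-glucuronosyltransferases. Glutathione S-transferases kept 2 of 28 and ABC transporters 3 of 33. Each of these shares was above that of all tested genes in the same fit. The medians were 0.07, 0.33, -0.17, 0.30 and 0.14, so that of the UDP-glucuronosyltransferases changed sign. ugt-62 was at 71, 165, 142, 209 and 113 CPM in wild type and 487 to 1661 (median 1151) CPM in the mutants (2.98 ± 0.30, SE; edgeR adjusted p = 1.69e-05). gst-38 was at 1.14, 1.57, 3.26, 1.86 and 0.513 and 8.26 to 29.1 (median 17.2) CPM (3.33 ± 0.38, SE). The intestinal P-glycoprotein gene pgp-1 was at 23.6, 41.4, 66.8, 50.7 and 36 and 138 to 737 (median 386) CPM (3.09 ± 0.34, SE), and its relative pgp-9 at 21.3, 25.6, 43, 40.1 and 17 and 67 to 243 (median 160) CPM. None of these 4 genes, chosen for a small adjusted p in their lists, overlapped between wild type and mutant libraries. cyp-13A11 had 5 rounded counts over all wild type libraries and at least 33 in each mutant library. The carboxylesterase gene cest-8 rose by 3.04 ± 0.35 (SE) on the log2 scale, and shares 495 exonic bases with cest-9.2 on the same strand, so its counts can include that gene's.

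Among 22 antioxidant genes 5 rose and 0 fell (median 0.20, -0.11 on TPM), and 3 rose without wild type replicate 1. msra-1, a methionine sulfoxide reductase, went from 40.9, 62.2, 68.1, 41.4 and 45.1 CPM to 293 to 505 CPM in gas-1 and 83.8 to 177 CPM in OE, so both strains were above wild type and differed from each other by -1.43 (edgeR adjusted p = 0.00495). ctl-1, a cytosolic catalase, rose by 1.01 ± 0.19 (SE) on the log2 scale. Nuclear hormone receptors, the large family of transcription factors through which worms regulate metabolism and detoxification, gave 26 rises and 4 falls among 158 tested (against 12.6% and 7.82% of all genes), among them nhr-115 (2.19 ± 0.25, SE), nhr-193 and nhr-90. With the germline covariate 3 receptors were called higher, beside 150 of all 10585 tested genes. The median of the family was then -0.09, against 0.58 without the covariate. In both strains 6 of the 158 receptors were called higher and 0 lower, close to the 3.8% and 0.463% of all tested genes. Metal-responsive genes gave 9 rises and 2 falls of 29 (3 rises with that covariate), and beside cdr-4 and cdr-2 the zinc transporter gene zipt-2.3 rose by 2.81 ± 0.34 (SE), more in gas-1 (3.90) than in OE (1.72; strain difference edgeR adjusted p = 0.00359).

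Genes of several steps of lipid metabolism were called. In fatty acid synthesis and desaturation 14 of 22 genes rose and 1 fell (median 0.75; 10 to 14 rises with 1 library left out). fat-2, the desaturase that makes linoleic acid, was at 519, 785, 764, 961 and 547 CPM in wild type and 969 to 2429 (median 1992) CPM in the mutants (1.39 ± 0.23, SE), with no overlap. fat-6, a desaturase that makes oleic acid, was at 123, 202, 205, 275 and 139 and 231 to 526 (median 444) CPM, where the lowest mutant libraries lay within the wild type range. sbp-1, the worm's SREBP, a transcription factor that drives lipid synthesis genes, rose by 1.14 ± 0.24 (SE). Peroxisomal oxidation genes gave 11 rises and 1 fall among 28 (median 0.67), but only 4 rises without wild type replicate 1 or 5, 6 or 7 without replicate 2 or 3 of wild type, 1 or 3 of gas-1, or 1 or 4 of OE, and 17 without OE replicate 2. Within that pathway pmp-1, a peroxisomal ABC transporter (1.73 ± 0.24, SE), and daf-22, the thiolase of the last step (0.94 ± 0.22, SE), rose while acox-1.2 fell. Mitochondrial beta-oxidation was closer to the background, with 7 rises and 1 fall of 38 and a median of 0.19, or -0.09 on TPM, and it gave 11 or 12 rises without gas-1 replicate 2 or OE replicate 2. With the germline covariate edgeR called 0 rises for fatty acid synthesis (median 0.26, with 3 genes at an unadjusted p under 0.05). It called 1 for peroxisomal oxidation (median -0.01) and 0 for mitochondrial beta-oxidation (9 genes at an unadjusted p under 0.05). Of all 10585 tested genes that fit called 150 higher. Rises called in both strains numbered 5 for fatty acid synthesis, 2 for peroxisomal oxidation and 2 for mitochondrial beta-oxidation. sbp-1 was not among them (common adjusted p = 0.0563, edgeR).

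Of 12 tested lipase genes 5 rose and 3 fell (median 0.07, -0.32 on TPM), and 3 of the rises are lysosomal acid lipase genes with no overlap between mutant and wild type libraries. lipl-3 was at 5.45, 14.6, 13, 12.3 and 8.21 CPM in wild type and 28.4 to 108 (median 73.4) CPM in the mutants (2.65 ± 0.33, SE; edgeR adjusted p = 9.88e-05). lipl-1 was at 3.58, 5.12, 3, 9.79 and 3.08 and 13.1 to 52.1 (median 28.1) CPM, and lipl-4, known from long-lived germline-less worms, at 0.156, 1.57, 1.57, 2.61 and 2.62 and 3.31 to 18.1 (median 11.4) CPM. The list's rises stayed at 5 when any 1 library was left out and were 3 with the germline covariate, while the falls dropped to 0 or 1 when any of 10 of the 15 libraries was left out. Lipid binding proteins split in direction. lbp-6 (1.38 ± 0.21, SE) and lbp-8, a lysosomal lipid chaperone (2.21 ± 0.34, SE), rose, whereas lbp-2 fell from 292, 253, 4.66, 477 and 56.1 CPM to 0.458 to 4.89 (median 2.92) CPM. The high wild type values of lbp-2 were those of replicates 1, 2 and 4, the libraries with muscle and collagen RNA, and without them its log2 fold change was -3.35 instead of -6.25. In glycerolipid synthesis acl-7 rose (1.43 ± 0.23, SE) as acl-4 fell, among 6 rises and 1 fall of 27. Sphingolipid genes gave 11 rises and 2 falls of 23 (median 0.59): sptl-1, a subunit of the serine palmitoyltransferase that starts ceramide synthesis (1.06 ± 0.18, SE), and asah-2, an acid ceramidase (1.62 ± 0.24, SE), rose, and gba-2, a glucocerebrosidase (-2.30 ± 0.33, SE), fell, less in gas-1 (-1.37) than in OE (-3.23). The sphingolipid rises numbered 1 with the germline covariate, beside 150 of all 10585 tested genes. In both strains 6 sphingolipid rises were called. Of the 6 yolk protein genes, vit-2 alone was called (0.96 ± 0.29, SE), and its call was lost without wild type replicate 1, 2 or 5.

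**Figure D5:**
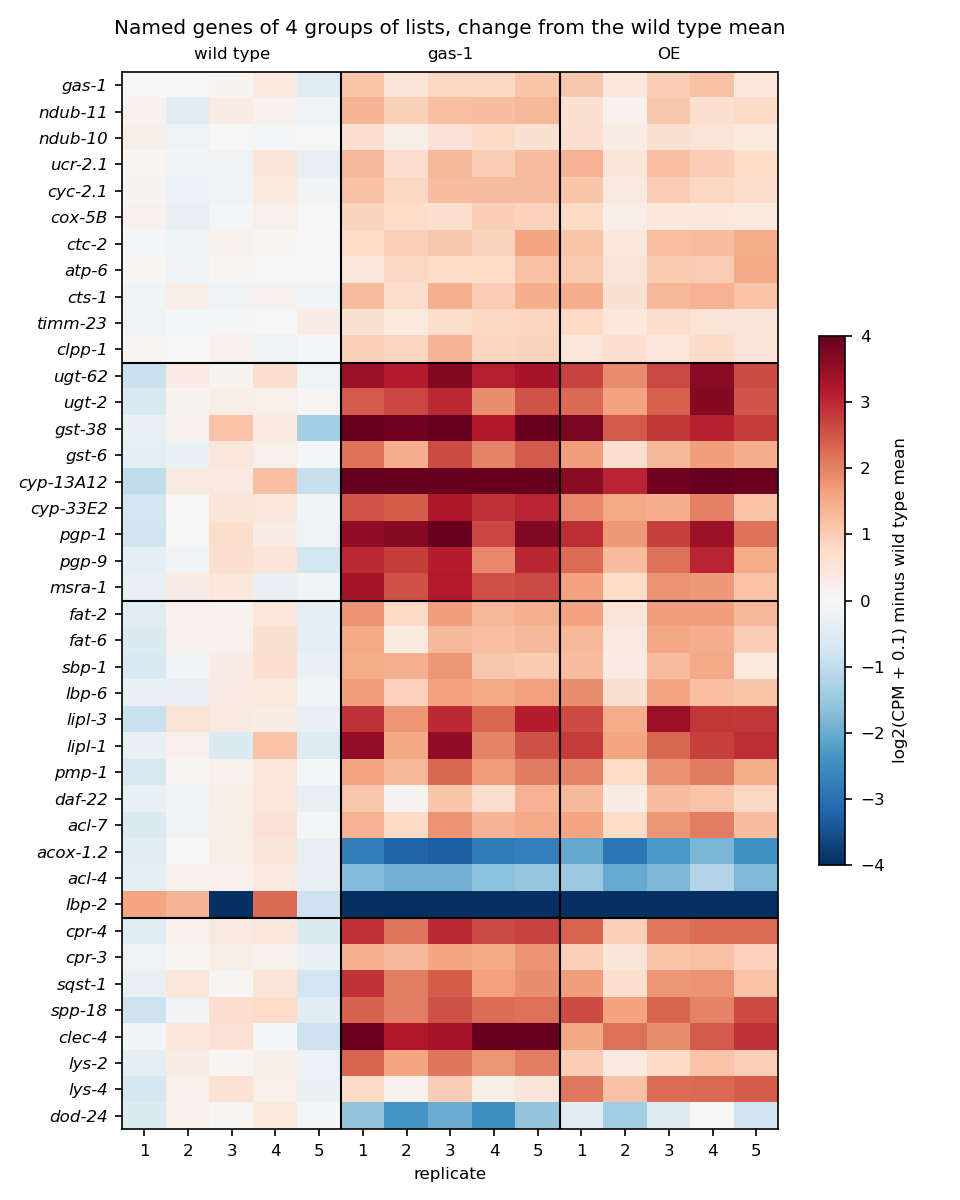
Named genes of respiration, detoxification, lipid metabolism and lysosome or defence (4 blocks from top to bottom) in each library, as log2(CPM + 0.1) minus the wild type mean, with colours limited to -4 to 4. The mutant columns are red for most genes. acox-1.2, acl-4 and lbp-2 are blue in all 10 (lbp-2 also in wild type replicates 3 and 5), with log2 fold changes of -2.65, -1.71 and -6.25.

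Lists of lysosomal proteases and secreted defence proteins held more rises than falls. With the germline covariate fewer rises were called, as over all tested genes (150 of 10585). Cathepsin and aspartyl protease genes gave 11 rises and 1 fall of 22 (median 0.70), and 4 rises with the germline covariate (median 0.04). cpr-4, a cathepsin B, was at 348, 558, 632, 671 and 336 CPM in wild type and 948 to 3842 (median 2376) CPM in the mutants (2.31 ± 0.26, SE; edgeR adjusted p = 3.47e-05), and its relative cpr-3 at 20.1, 23.7, 27, 25.9 and 19.2 and 32 to 79.8 (median 54.2) CPM, neither with overlap. Of 21 V-ATPase subunits, which acidify lysosomes and the gut lumen, 10 rose and 1 fell, with rises from 4 to 17 as single libraries were left out: 4 to 6 without replicate 1, 3 or 5 of wild type, 3 of gas-1, or 1 or 3 of OE, and 16 or 17 without replicate 2 of either mutant strain. edgeR with the germline covariate called 0 of them higher (1 at an unadjusted p under 0.05). The common change called 0 V-ATPase genes in either direction, and 5 rises and 1 fall among the cathepsin and aspartyl protease genes. Over all tested genes it called 3.8% higher and 0.463% lower. Autophagy genes gave 1 rise and 0 falls of 23 (DESeq2 2 and 1; 5 at an unadjusted p under 0.05), the rise being sqst-1, the selective autophagy receptor p62, at 18.6, 30.8, 23.5, 32.9 and 13.4 CPM in wild type and 36 to 170 (median 78) CPM in the mutants. C-type lectins gave 32 rises and 7 falls of 84 (median 0.92), or 5 rises with the germline covariate, with clec-4 at 44.5, 63.9, 70.9, 45.5 and 26.5 and 139 to 826 (median 400) CPM. Lysozymes gave 6 rises and 0 falls of 12 (DESeq2 8 and 0; 8 at an unadjusted p under 0.05), among them lys-2 (1.41 ± 0.18, SE), but 1 was called in both strains and 1 with the germline covariate. Saposin-like genes gave 5 rises and 2 falls of 16 (3 rises without replicate 1, 2 or 5 of wild type, 3 of gas-1 or 1 of OE, and 9 without wild type replicate 4 or OE replicate 2), and spp-18 rose from 11.8, 19.3, 33.6, 35 and 15.5 CPM to 64.3 to 130 (median 103) CPM. Genes known from infection or from daf-16 studies split evenly, with 3 rises and 3 falls of 16. dod-24 had a pooled log2 fold change of -1.29 ± 0.21 (SE), with -1.98 in gas-1 and -0.59 in OE, where it was not called (adjusted p = 0.147; strain difference adjusted p = 0.00836; both edgeR).

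Few genes of protein synthesis and turnover were called on counts. On TPM more were called lower in some of these lists, as among all tested genes. Of 80 cytosolic ribosomal proteins 1 rose and 0 fell (DESeq2 8 and 0; 10 at an unadjusted p under 0.05), of 33 proteasome subunits 0 rose and 2 fell (DESeq2 0 and 3; 5 at an unadjusted p under 0.05), and of 32 aminoacyl-tRNA synthetases 1 rose and 1 fell. Cytosolic heat shock genes gave 1 rise and 1 fall of 13, and endoplasmic reticulum folding genes 1 rise and 0 falls of 17 (DESeq2 3 and 1; 4 at an unadjusted p under 0.05), the rise being xbp-1 (1.26 in gas-1 and 0.31 in OE, not called in both strains). When any 1 library was left out, no count of these lists passed 5 in either direction. On TPM, 13 of 33 proteasome subunits (median -0.55), 7 of 32 synthetases and 4 of 17 endoplasmic reticulum folding genes were lower. Of all 10585 tested genes 2548 were lower on TPM, a share close to those of the synthetases and the folding genes. Cytosolic ribosomal proteins gave 1 rise and 0 falls of 80 on TPM. Histone genes gave 8 rises and 1 fall of 36, with a median of -0.13, so the members called and the middle of the family differed in sign. his-11 was at 0.83, 1.39, 1.45, 1.68 and 0.742 CPM in wild type and 4.94 to 18.6 (median 9.66) CPM in the mutants, and his-25 at 1.14, 2.2, 3.14, 5.31 and 0.799 and 6.05 to 26 (median 15.7) CPM. Histone genes have near-identical copies, so their counts may be divided among copies in an uncertain way.

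Several lists of other tissues held falls and 0 rises: germline, oocyte and embryo, body wall muscle, hypodermis and cuticle collagens. Hypodermis markers gave 5 falls of 9, and 2 without wild type replicate 1 or 2. Other tissues did not share this. Neuron markers gave 1 rise and 1 fall of 11. Pharynx (7 tested, median 0.52), somatic gonad (6 tested) and coelomocyte (2 tested) markers gave 0 calls. Germline markers gave 0 rises and 8 falls of 26 (median -0.37; DESeq2 0 and 8), and oocyte and embryo markers 0 rises and 12 falls of 22 (median -0.57; DESeq2 0 and 15). At an unadjusted p under 0.05, 14 and 20 of them passed. deps-1, a P granule component, was at 138, 151, 130, 116 and 168 CPM in wild type and 60.9 to 149 (median 91.3) CPM in the mutants, and egg-1, an oocyte surface protein, at 401, 454, 371, 328 and 366 and 183 to 369 (median 250) CPM. The germline count was 1 without wild type replicate 2 or 5, 3 without wild type replicate 1, and 4 or 5 without OE replicate 4 or gas-1 replicate 2 or 5. The oocyte count was 0 without wild type replicate 1, 2 or 5, and 4 to 7 without replicate 3 of wild type, 2, 3 or 5 of gas-1, or 1 or 4 of OE. Body wall muscle genes gave 0 rises and 9 falls of 15 (median -1.76), 5 without wild type replicate 1, and the median was -0.02 without wild type replicates 1, 2 and 4. unc-54, the main body wall myosin heavy chain, shows the pattern at 219, 138, 14.1, 362 and 66.3 CPM in wild type and 9.76 to 67 (median 21.4) CPM in the mutants. Cuticle collagens gave 0 rises and 16 falls of 41 (median -1.67), with a median of 0.61 without those 3 libraries, 6 falls without wild type replicate 1, 7 without wild type replicate 4 and 10 without OE replicate 4. Intestine markers gave 11 rises and 0 falls of 19 (median 0.91; 9 to 15 with 1 library left out), among them pgp-1, the filament organiser ifo-1 (2.03 ± 0.30, SE) and the intermediate filament ifd-2 (1.25 ± 0.20, SE). Of the intestine markers 2 were called higher once the germline covariate was fitted. Calls in both strains were 5 rises of intestine markers and 4 falls of body wall muscle genes. Germline markers, oocyte and embryo markers and cuticle collagens had 0 such calls, where 0.463% of all tested genes were common falls. Their medians were negative in both strains: -0.56, -0.67 and -0.99 in gas-1, and -0.20, -0.46 and -2.32 in OE. The summed intestine markers were above the wild type maximum in 8 of 10 mutant libraries and the summed germline markers below the wild type minimum in 9.

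The strains did not move together for every gene. The strain difference, OE against gas-1, was called for 168 genes (1.59% of those tested), of which 61 were among the 1337 pooled rises and 27 among the 828 pooled falls. For 12 genes the pooled contrast was called although the strain changes had opposite signs. F56A4.3 was at 47.2, 46.5, 66.2, 79 and 41.1 CPM in wild type, whereas gas-1 held 0.283 to 1.31 CPM and OE 40.1 to 105 CPM, so its pooled fall of -2.77 ± 0.26 (SE) was carried by gas-1, since OE spanned the wild type range. irld-53 had the same shape, at 11.5, 19, 23.4, 25.2 and 16.9 CPM in wild type, with gas-1 at 1.46 to 3.92 and OE at 18.1 to 39.1. Y49E10.16 had the reverse, at 42, 62.9, 74.5, 100 and 63.8 CPM in wild type, with gas-1 at 51.9 to 102 and OE at 2.56 to 10.6. lys-5, a lysozyme gene, was at 13.7, 13, 22.7, 22.7 and 14 CPM in wild type, with gas-1 at 6.92 to 16.6 and OE at 40.1 to 131, with all OE libraries above wild type. clec-209 and F56A4.2 had equal estimated counts in every library, so the 2 cannot be separated, and their shared level was 830 to 1863 CPM in wild type, with gas-1 at 169 to 324 and OE at 833 to 1715. irld-53, clec-209, F56A4.3 and F56A4.2 lie together on chromosome V, between bases 2348215 and 2460893. None of these 6 genes was called in the common change, and in a fit that treats the 10 mutant libraries as 1 group all 6 lost the pooled call.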

How the data were processed

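Transcript abundances were deposited by the authors as estimated counts and TPM per library, made with kallisto 0.44.0 on build WBcel235 after bcl2fastq 2.20, per the submitters' processing notes. The deposited files number their 61451 targets, and each number was read as a line, counted from 0, of the deposited transcript-to-gene map: lengths of noncoding transcripts then matched for 99.95% of 27886, against 51.81% when moved by 1 line. Estimated counts were summed per gene (46904 genes) and rounded to whole numbers. Genes passing edgeR's expression filter (minimum count 10; 10585 genes) were fitted in edgeR 4.0.16 (R 4.3.3) with TMM scaling, 3 groups and 12 residual degrees of freedom, and the mean of both strains was set against wild type. Adjusted p-values are Benjamini-Hochberg values over all tested genes. DESeq2 1.42.0 and limma 3.58.1 served as alternatives, and the deposited TPM values were tested as log2(TPM + 1). CPM values are TMM-scaled. The scripts were tested on simulated data.

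Named genes are gas-1, cest-2.2, up to 12 largest rises and falls called in both strains whose log2 CPM averages 3 or more and whose libraries do not overlap, the 5 rises and 5 falls with the smallest adjusted p, the 6 largest strain differences among pooled calls, and up to 3 called genes per list. Genes named from lists had the smallest adjusted p among the called members, and such a choice favours lack of overlap. The members and gene lists were chosen with earlier results of these data known. The authors' own comparison table was not used here.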

Additional observations from a re-analysis of the deposited data

Results flagged for a closer look

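For 34 genes (gas-1, cest-2.2 and those named for the size of change, smallest p or strain difference) and 10 tissue marker lists, the most extreme library was looked at by Dixon's test in the 5 wild type and in the 10 mutant libraries, 88 groups in all. A single library stood far from the others in 4 of them, where chance flags about 1 in 20 groups. OE replicate 2 was low for C32H11.4, at 2.59 on the log2 CPM scale, and for the mean level of the intestine markers, at 5.46. OE replicate 1 was low for the body wall muscle markers, at 2.33, and wild type replicate 2 for the pharynx markers, at -2.49.

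For 22 named genes the 2 mutant strains differed from each other by edgeR's quasi-likelihood test, with values given as log2 changes of OE against gas-1. F33H12.7 (-2.28, adjusted p = 0.0466), cdr-4 (-1.64, adjusted p = 0.0236) and C51E3.10 (-1.32, adjusted p = 0.00372) rose in both strains and less in OE. Y49E10.16 was lower in OE than in gas-1 by edgeR (-4.09, adjusted p = 1.82e-05). F56A4.3 (6.41, adjusted p = 1.06e-07), irld-53 (3.58, adjusted p = 2.01e-05), lys-5 (2.79, adjusted p = 0.000215) and the inseparable pair clec-209 and F56A4.2 (2.59 each, adjusted p = 2.31e-05) were higher in OE by the same edgeR test. In each of Y49E10.16, F56A4.3, irld-53, lys-5 and clec-209, the libraries of the strains did not overlap.

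Among the genes named from lists, msra-1 (-1.43), cyp-33E2 (-1.23), lbp-8 (-1.52), clec-4 (-1.49), clec-265 (-1.0), lys-2 (-1.14), his-11 (-1.32), his-12 (-2.24) and zipt-2.3 (-2.18) rose in both strains and less in OE, with edgeR adjusted p of 0.00359 to 0.0395 for the difference. gba-2 (-1.85, adjusted p = 0.0317) and irg-4 (-2.17, adjusted p = 0.00104) were lower in OE than in gas-1, and lys-4 (1.54, adjusted p = 0.00573) and dod-24 (1.39, adjusted p = 0.00836) higher, by the same edgeR test.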

How the results depend on the processing

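Of 148 named genes, 61 were called under each of 27 alternatives, and 127 were called in each of the 15 fits that left out 1 library. DESeq2 called 848 common changes (702 higher, 146 lower) and 514 strain differences. TPM gave 3622 pooled calls, 2548 of them lower, 216 common rises, 119 common falls and 342 strain differences. The germline covariate left 277 pooled calls (150 higher, 127 lower) and 71 common changes (50 and 21). The muscle covariate left 1438 pooled calls, 437 of them lower, and 221 common changes (208 and 13). Without wild type replicates 1, 2 and 4, 290 pooled (264 and 26) and 75 common (69 and 6) calls were left, and nlp-28 (0.02) and hsp-43 (0.18) changed sign. This fit rests on fewer samples. The cause of the other shifts was not tested.

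Leaving out 1 library gave 1190 to 2711 pooled calls (937 to 1785 higher, 253 to 926 lower), 261 to 884 common changes (239 to 797 higher, 19 to 107 lower) and 85 to 380 strain differences. Pooled calls were 1190 without wild type replicate 1 and 1322 without wild type replicate 5. Pooled falls were 253, 307 and 337 without wild type replicates 1, 2 and 5, and 508 without OE replicate 4. Common changes were 261 to 296 without replicate 1 or 5 of wild type, 3 of gas-1, or 1 or 4 of OE, and 884 without OE replicate 2. Common rises alone were also lower without OE replicate 3, at 260. Common falls were 29 without wild type replicate 2 and 107 without wild type replicate 3. Strain differences were 85 to 107 without replicate 1 or 3 of gas-1, or 1, 2 or 5 of OE, and 380 without gas-1 replicate 2.

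Correlations of deviations for same-numbered libraries ran from -0.336 (wild type and OE, replicate 3) to 0.272 (gas-1 and OE, replicate 2). Of these, 0 of 5 (wild type and gas-1), 1 of 5 (wild type and OE) and 1 of 5 (gas-1 and OE) were over 0.1. Libraries of unlike number were not compared, so whether replicate numbers pair the libraries was not tested. A fit with the replicate block gave 1958 pooled calls, 344 common changes with 24 falls, and 102 strain differences. Genes with low counts were called less often, 10.1% of the lowest level class against 42.1% of the highest.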

Other observations

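The pooled rises were spread unevenly over chromosomes as counts: 17.1% of the 2012 tested genes on chromosome V and 7.91% of the 1820 on chromosome I were higher in the mutants, and 11 of 15 genes of the mitochondrial genome. Within 500000 bases of gas-1 on either side, 13 of 67 tested genes were higher and 4 lower, beside 14.8% and 7.42% on chromosome X and 12.6% and 7.82% of all tested genes. Of 18 long intergenic noncoding RNAs 4 were higher and 0 lower, and of 241 pseudogenes 19 were higher and 4 lower, by edgeR, which for pseudogenes are smaller shares than over all tested genes.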
